A study of Rattus norvegicus with 4 samples.

Results

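The transforming growth factor beta (TGF-beta) and bone morphogenetic protein (BMP) families were examined in the frontal cortex of newborn rats after prenatal exposure to bisphenol A (BPA), a plasticizer with endocrine activity. Members were chosen by gene symbol, namely the Bmp, Gdf, Tgfb, Inha and Inhb ligands, the Bmpr, Tgfbr and Acvr receptors, the Smad and Ltbp genes, and Nog, Chrd, Fst, Fstl1, Grem1 and Id1 to Id4. This rule found 57 of the 14008 genes with an NCBI Gene ID, among 17419 transcripts in all. Of the 57 members, 53 were listed in all 4 libraries and 44 had a mean expression of at least 1 FPKM (fragments per transcript length and library size, in the authors' scaling). Bmp1, Tgfb1i1 and Tgfbrap1 were matched by their symbols although none of them encodes a ligand or receptor of these families.

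Polyadenylated RNA was sequenced in 1 library for each sex and treatment, so that a control and a BPA library stand against each other in males and again in females. Values are given for the control and then the BPA library, first for males and then for females. Per the labels the pups were Wistar rats of postnatal day 1, whereas the study's methods name the strain Wistar Furth and an age of postnatal days 1 to 2. Their dams received 5000 µg/kg of maternal body weight of BPA daily from gestational day 1 until parturition, or the vehicle of ethanol in corn oil. The study's methods speak of several pups per sex and treatment, from independent litters, but not of how they were shared among libraries. Each comparison within a sex is therefore that of 1 library with 1 other and has no replicate check.

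TGF-beta family ligands are secreted dimers that assemble type I and type II serine/threonine kinase receptors. BMP receptors act mainly through Smad1, Smad5 and Smad9, and TGF-beta and activin receptors mainly through Smad2 and Smad3, with Smad4 as the shared partner. Secreted antagonists such as noggin and chordin limit the ligands, Smad6 and Smad7 limit the receptors, and the Id genes are classical BMP targets. In the developing forebrain these signals pattern the dorsal midline, steer progenitors towards neurons or glia, and are sent in part by the meninges that cover the cortex.

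The depth of the libraries, recovered from the steps of the FPKM, lay between 8955500 and 9250500 estimated fragments. Excitatory cortical neuron genes marked the tissue, and Neurod6 stood between 215.55 and 255.27 FPKM in the 4 libraries. Marker genes of other cell types differed between the treatments, and their lists are given after the members. In bulk tissue, fewer cells of a type and less RNA per cell cannot be told apart.

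Among the members, Id2 was the most abundant on the per-length FPKM scale, with a mean of 161.3 FPKM, followed by the activin type I receptor Acvr1b (40.3), Smad4 (39.3), Smad5 (33.4) and the ligand Tgfb2 (28.3). In all, 18 members had a mean of at least 10 FPKM and 26 lay between 1 and 10 FPKM. The other 13 were below 1 FPKM or not listed in every library. These were the ligands Bmp5, Bmp8a, Bmp10, Bmp15, Gdf6, Gdf9 and Gdf15, the receptor Acvr1c, Smad6, Smad9, the binding proteins Ltbp1 and Ltbp2, and Grem1.

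**Figure D1:**
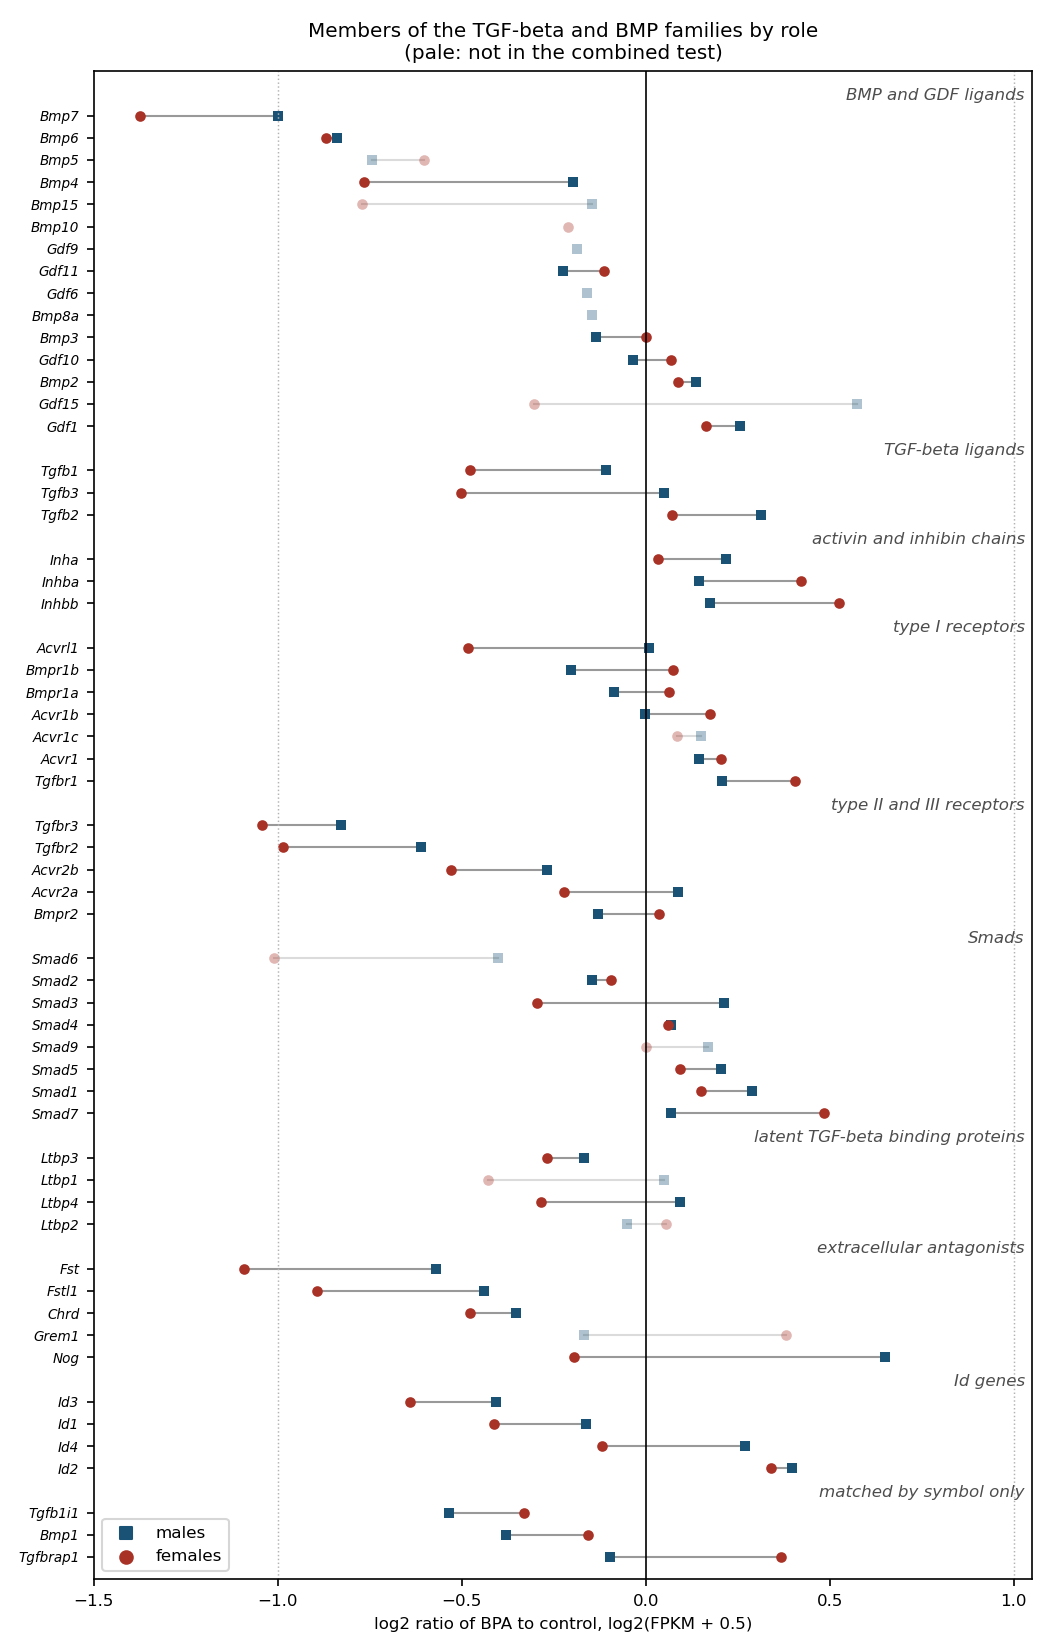
Log2 ratio of BPA to control for each member, computed on FPKM + 0.5, with males as squares and females as circles, grouped by role; pale symbols mark the 13 members outside the combined test and dotted lines mark ratios of -1 and 1. Bmp7, Bmp6, Tgfbr3 and Tgfbr2 lie left of 0 in both sexes, while Id2 and Tgfbr1 lie right of 0 in both.

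In the combined comparison each treatment had 2 samples, its male and its female library, and the model was fitted with limma over 13163 transcripts. Bmp7 was the member called at a Benjamini-Hochberg adjusted p under 0.05, and 12 of the 44 tested members had an unadjusted p under 0.05. Over all transcripts, 0.562% were called (0.456% lower and 0.106% higher), and 17.3% had an unadjusted p under 0.05. The 44 members split into 26 with a lower and 18 with a higher ratio, and their median log2 ratio was -0.07, beside -0.04 over all transcripts tested. When the 10632 known genes, those with a Gene ID, were tested alone, limma called 7 members: Bmp7, Bmp6, Tgfbr3, Tgfbr2, Fstl1 and Id3 as lower and Id2 as higher. The background of that test was 4.49% (3.79% lower and 0.696% higher).

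For 16 of the 44 members both BPA libraries lay below both control libraries, and for 11 both lay above. The same held for 31.9% and 18.7% of all transcripts tested (50.6% in either direction), so groups that did not overlap were common in these libraries. The tilt towards lower levels depended on the scaling. After FPKM was rescaled by the median ratio, 3394 transcripts were lower and 3378 higher without overlap, and 15 and 12 of the members. The combined log2 ratio exceeded the difference between the sexes within either treatment for 15 members with a lower and 9 with a higher ratio, against 24.4% and 13.9% of all transcripts. The members whose groups overlapped included Bmpr1a, Bmpr2, Acvr1b, Smad3, Gdf10, Gdf11 and Nog.

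**Figure D2:**
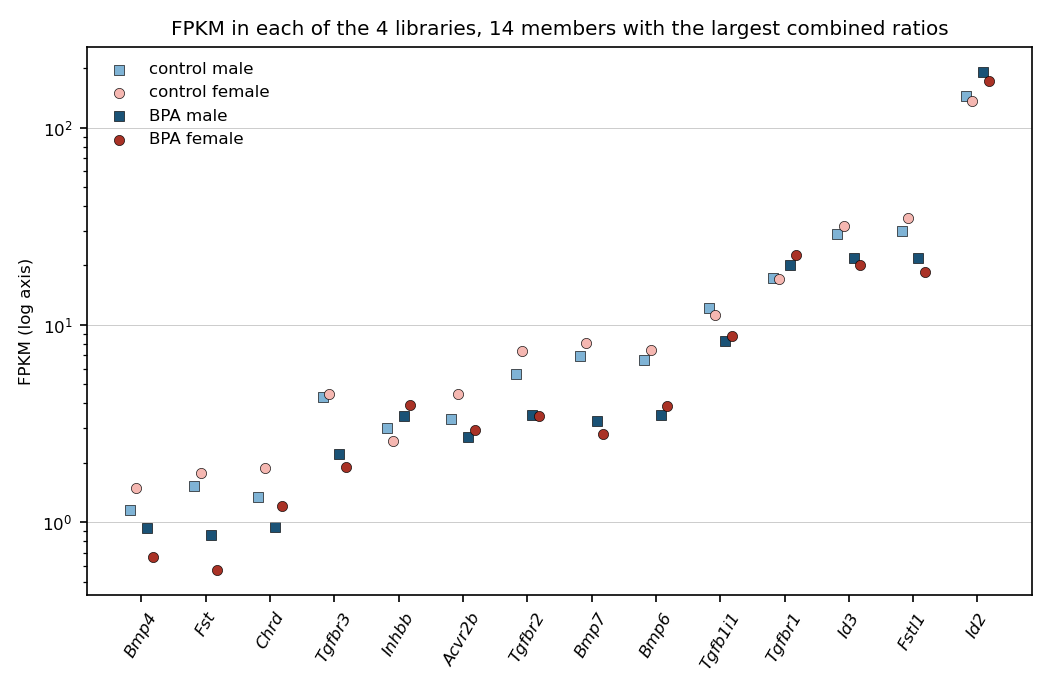
FPKM (log axis) in the 4 libraries for the 14 members with the largest absolute combined log2 ratios, with light symbols for control, dark symbols for BPA, squares for males and circles for females. Bmp7, Bmp6, Tgfbr3, Tgfbr2 and Fstl1 show both dark symbols below both light ones, and Id2 and Tgfbr1 show both above.

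Among the BMP and GDF ligands, Bmp7 and Bmp6 had the lowest ratios of the tested members of this role. Bmp7, a BMP made by the meninges and the dorsal midline during brain development, had 6.98 and 3.24 FPKM in males and 8.06 and 2.80 in females. Both BPA values lay below both control values, with a gap of 3.74 FPKM between the groups. In the same libraries the summed level of 16 markers of meninges and fibroblasts was 520.2 and 239.4 FPKM in males and 673.6 and 167.2 in females. Ptgds alone gave 214.04 and 109.08 FPKM of this sum in males and 320.0 and 66.86 in females. The sum was lower with BPA in both sexes, as were Bmp7, Bmp6, Tgfbr3, Tgfbr2, Fstl1 and Id3. Its part in their levels was not tested. Bmp7 fell with BPA by 1.19 on the log2 scale (standard error 0.152, limma adjusted p = 0.0460). The BPA level was 0.464 times the control level in males (95% counting interval 0.346 to 0.619) and 0.347 times in females (0.254 to 0.468). The call did not hold with sex as a second term (limma adjusted p = 0.0541), without the filter on low values (0.149), without the trend in the prior variance (0.143) or with any library left out. In these last fits the limma adjusted p was 0.132 without control male, 0.155 without BPA male, 0.269 without control female and 0.211 without BPA female, and the log2 ratio lay between -1.28 and -1.09. Each of these fits leaves 1 library in a treatment, which is assumed to vary like the others, and calls 0 to 6 of all 13163 transcripts, so the lost call says little about Bmp7 itself.

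Bmp6, a close relative of Bmp7 and Bmp5, had 6.66 and 3.50 FPKM in males and 7.50 and 3.88 in females. Its log2 ratio was -0.85 (standard error 0.141, limma adjusted p = 0.0726). The ratios of the sexes were close to each other, at -0.84 in males and -0.87 in females. Bmp5 lay below the filter, with 1.04 and 0.42 FPKM in males and 1.23 and 0.64 in females, which rest on 35, 14, 40 and 21 estimated fragments.

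Bmp4, a BMP of the dorsal midline, had 1.15 and 0.94 FPKM in males and 1.49 and 0.67 in females. Its 9 to 20 estimated fragments per library gave a log2 ratio of -0.48 with a standard error of 0.321 (limma adjusted p = 0.473). The most abundant ligands of this role were Gdf1 and Gdf11. Gdf1, a ligand related to Vg1 whose transcript also carries the ceramide synthase gene Cers1, had 9.98 and 12.01 FPKM in males and 11.66 and 13.13 in females (log2 ratio 0.21, standard error 0.112, limma adjusted p = 0.383). Gdf11, which limits neurogenesis in several tissues, had 10.92 and 9.27 FPKM in males and 11.86 and 10.93 in females (log2 ratio -0.17, limma adjusted p = 0.485), and its groups overlapped by 0.01 FPKM. Bmp2, Bmp3 and Gdf10 had log2 ratios between -0.07 and 0.11 and overlapping groups. Bmp8a, Bmp10, Bmp15, Gdf6, Gdf9 and Gdf15 rested on 0 to 6 estimated fragments per library, and no difference was detectable at this depth.

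Of the TGF-beta ligands, Tgfb2 made up most of the level. It had 25.28 and 31.52 FPKM in males and 27.45 and 28.87 in females (log2 ratio 0.19, standard error 0.0811, limma adjusted p = 0.295). Most of this difference lay in the male pair. Tgfb1 had 3.42 and 3.14 FPKM in males and 4.01 and 2.74 in females (log2 ratio -0.29, standard error 0.178, limma adjusted p = 0.438), and the groups of Tgfb3 overlapped.

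The chains of activin and inhibin, which are joined in pairs to give activins or their antagonists, had higher ratios in all 3 cases and no call. Inhbb had 2.99 and 3.44 FPKM in males and 2.59 and 3.95 in females (log2 ratio 0.35, standard error 0.179, limma adjusted p = 0.365). Inhba, the chain of activin A, had 4.64 and 5.18 FPKM in males and 3.82 and 5.29 in females (log2 ratio 0.28). For both, each BPA library lay above each control library, whereas the groups of Inha overlapped at 6.44 and 7.57 FPKM in males and 8.08 and 8.28 in females.

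Among the type I receptors, Tgfbr1, the kinase receptor for TGF-beta, had 17.29 and 20.05 FPKM in males and 17.00 and 22.68 in females. Both BPA values were above both control values (log2 ratio 0.31, standard error 0.0882, limma adjusted p = 0.184). Acvr1, a receptor for BMPs, differed in the same direction with a log2 ratio of 0.18 (limma adjusted p = 0.314). Acvr1b, the most abundant of this role, had 39.26 and 39.21 FPKM in males and 38.76 and 43.80 in females. Bmpr1a, a main BMP receptor, had 26.78 and 25.19 FPKM in males and 23.59 and 24.68 in females. The groups of both overlapped, and so did those of the scarcer Bmpr1b and Acvrl1. Acvr1c had 0.49 to 0.71 FPKM.

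Of the type II and type III receptors, Tgfbr3 and Tgfbr2 had the lowest ratios. Tgfbr3, or betaglycan, a co-receptor that presents TGF-beta2 and binds inhibin, had 4.31 and 2.21 FPKM in males and 4.47 and 1.91 in females. The BPA level was 0.513 times the control level in males (95% counting interval 0.404 to 0.656) and 0.427 times in females (0.332 to 0.554). The log2 ratio was -0.94 (standard error 0.177, limma adjusted p = 0.0883).

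Tgfbr2, the receptor that binds TGF-beta directly, had 5.62 and 3.51 FPKM in males and 7.36 and 3.47 in females (log2 ratio -0.80, standard error 0.168, limma adjusted p = 0.115). The ratios of Tgfbr1 and Tgfbr2, partners in 1 receptor complex, thus stood on opposite sides of 0 in both sexes. Acvr2b, a receptor for activins and Gdf11, had 3.34 and 2.69 FPKM in males and 4.45 and 2.93 in females, and its groups did not overlap (log2 ratio -0.40, limma adjusted p = 0.348; -0.22 without the control female library). Bmpr2, the type II receptor for BMPs, had 26.73 and 24.41 FPKM in males and 27.05 and 27.74 in females. Acvr2a, a receptor for activins, had 20.10 and 21.38 FPKM in males and 21.49 and 18.36 in females, and the groups of both overlapped.

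The log2 ratios of the tested Smad genes lay between -0.12 and 0.28. Smad4, the shared partner of the others, had 38.15 and 40.01 FPKM in males and 38.65 and 40.34 in females (log2 ratio 0.06, standard error 0.0602, limma adjusted p = 0.615). Smad5 had 29.64 and 34.21 FPKM in males and 33.70 and 36.01 in females, and Smad1 20.61 and 25.27 FPKM in males and 20.21 and 22.49 in females. Their log2 ratios were 0.15 and 0.22, with limma adjusted p of 0.403 and 0.263. Both transduce BMP signals, and their BPA libraries lay above their control libraries.

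Smad2, a transducer of TGF-beta and activin, stood lower with BPA without overlap (23.50 to 23.81 against 25.13 to 26.41 FPKM), with a log2 ratio of -0.12. Smad3 overlapped, with 4.63 and 5.45 FPKM in males and 6.59 and 5.28 in females. The inhibitory Smads had opposite signs. Smad7 had 2.98 and 3.15 FPKM in males and 2.39 and 3.54 in females (log2 ratio 0.28, limma adjusted p = 0.492), while Smad6 had 0.82 and 0.50 FPKM in males and 0.85 and 0.17 in females from 10, 6, 10 and 2 estimated fragments. Smad9 had 0.63 to 0.77 FPKM.

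The latent TGF-beta binding proteins tether inactive TGF-beta to the matrix. Ltbp3 had 5.35 and 4.71 FPKM in males and 5.74 and 4.68 in females (log2 ratio -0.22, limma adjusted p = 0.430), and Ltbp4 overlapped, with 4.31 and 4.63 FPKM in males and 5.09 and 4.09 in females. Ltbp1 stayed between 0.34 and 0.67 FPKM and Ltbp2 at or below 0.07 FPKM.

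Of the extracellular antagonists, Fstl1, a secreted glycoprotein that binds ligands of the family, was the most abundant, with 29.88 and 21.91 FPKM in males and 34.76 and 18.47 in females. The groups lay 7.97 FPKM apart (log2 ratio -0.67, standard error 0.114, limma adjusted p = 0.0761). Fst, or follistatin, the antagonist of activin, had 1.52 and 0.86 FPKM in males and 1.78 and 0.57 in females. With 11 to 34 estimated fragments per library its log2 ratio of -0.83 had a standard error of 0.310 (limma adjusted p = 0.254).

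Chrd, the BMP antagonist chordin, had 1.35 and 0.95 FPKM in males and 1.88 and 1.21 in females (log2 ratio -0.41, limma adjusted p = 0.502; -0.23 without the control female library). Nog, the BMP antagonist noggin, had ratios of opposite sign in the sexes, with 1.59 and 2.78 FPKM in males but 2.35 and 1.99 in females. So had Grem1, another BMP antagonist, with 0.95 and 0.79 FPKM in males but 0.66 and 1.01 in females. Neither difference between the sexes passed the test (adjusted p = 0.233 and 0.365 from the normal test on estimated fragments described below). Bmp1, the protease that cleaves chordin and procollagens, had 8.93 and 6.75 FPKM in males and 9.85 and 8.78 in females, with a log2 ratio of -0.27 (limma adjusted p = 0.394).

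The other members matched by symbol act inside the cell. Tgfb1i1, a LIM protein of focal adhesions, had 12.17 and 8.24 FPKM in males and 11.22 and 8.82 in females, without overlap (log2 ratio -0.43, standard error 0.102, limma adjusted p = 0.133). The groups of Tgfbrap1, which encodes a protein that binds TGF-beta receptors, overlapped at 10.55 to 13.77 FPKM.

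The Id genes encode helix-loop-helix proteins that hold back basic helix-loop-helix factors and are direct targets of BMP Smads. Their ratios differed in sign. Id2 had 145.04 and 191.34 FPKM in males and 136.18 and 172.57 in females (log2 ratio 0.37, standard error 0.0721, limma adjusted p = 0.0960). Id3 had 28.92 and 21.70 FPKM in males and 31.60 and 20.10 in females (log2 ratio -0.52, standard error 0.0819, limma adjusted p = 0.0664). For both genes the groups did not overlap, in opposite directions. The summed level of 10 striatal genes, which moved with Id2 and Tgfbr1, was 94.0 and 144.6 FPKM in males and 98.4 and 156.9 in females, and its part in their levels was not tested.

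Id1 had 9.51 and 8.44 FPKM in males and 11.12 and 8.23 in females (log2 ratio -0.29, limma adjusted p = 0.275), and the groups of Id4 overlapped at 8.30 to 10.91 FPKM. With sex as a second term, limma called Id2 (adjusted p = 0.0425) in place of Bmp7, beside 0.653% of all transcripts. Among transcripts with a mean of at least 5 FPKM it called Bmp7, Fstl1 and Id3, beside 1.80%.

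**Figure D3:**
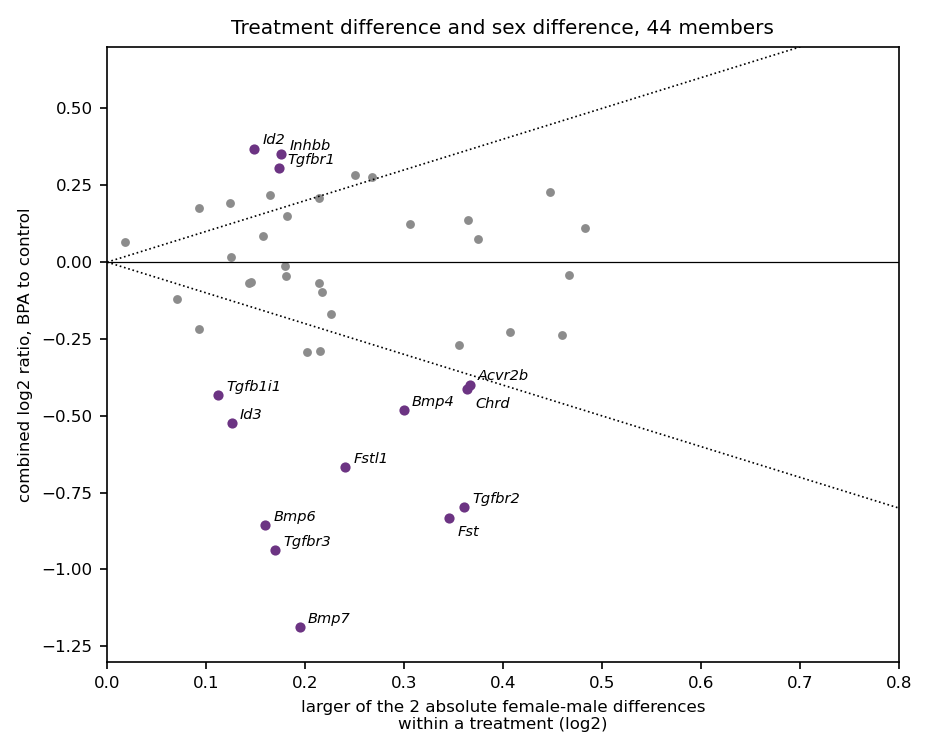
Combined log2 ratio of BPA to control (vertical) against the larger of the absolute female-male differences within control and within BPA (horizontal, log2) for the 44 tested members, with dotted lines where both are equal in size. The purple points are the 14 members with the largest ratios, and Bmp7, Tgfbr3 and Bmp6 lie farthest below the lower line.

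Id1, Id2 and Id3 respond to the same Smads in textbook accounts, whereas here Id2 stood higher and Id1 and Id3 lower with BPA. The 250 bases before their start sites are therefore shown. They come from the RefSeq promoter table of the assembly GRCr8, which holds 48 of the 57 members. Capitals mark matches to the E-box CANNTG, the site of the basic helix-loop-helix factors that Id proteins hold back. The promoter of Id1 lies at chr3:161671314-161671563 on the plus strand, that of Id2 at chr6:47470996-47471245 on the minus strand and that of Id3 at chr5:153656041-153656290 on the plus strand.
Id1: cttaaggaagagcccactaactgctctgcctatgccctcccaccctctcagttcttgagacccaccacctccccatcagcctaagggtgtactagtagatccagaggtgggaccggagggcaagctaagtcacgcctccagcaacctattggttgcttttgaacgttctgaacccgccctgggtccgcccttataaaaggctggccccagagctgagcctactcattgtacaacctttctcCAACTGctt
Id2: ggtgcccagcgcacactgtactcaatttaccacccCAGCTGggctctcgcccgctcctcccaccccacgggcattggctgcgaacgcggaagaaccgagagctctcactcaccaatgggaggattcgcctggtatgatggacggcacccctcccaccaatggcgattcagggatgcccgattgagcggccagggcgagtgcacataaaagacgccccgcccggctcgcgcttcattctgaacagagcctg
Id3: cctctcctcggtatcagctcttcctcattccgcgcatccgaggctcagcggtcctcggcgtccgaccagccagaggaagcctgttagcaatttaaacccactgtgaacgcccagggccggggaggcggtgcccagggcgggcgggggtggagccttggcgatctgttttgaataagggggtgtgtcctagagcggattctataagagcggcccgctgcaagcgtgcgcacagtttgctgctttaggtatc

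Both strands were searched. CANNTG occurred in these windows 1 time each for Id1 and Id2 and 0 times for Id3 and Id4, and at least 1 match was found in 65.5% of 33469 promoters of the same length. The GC-rich BMP response element core GGCGCC had 0 matches in the windows of Id1, Id2, Id3 and Id4 and 2 in that of Smad7, against at least 1 in 8.7% of all promoters. The Smad box GTCT, with its reverse complement, occurred 1 time each for Id1, Id2, Id4 and Smad7 and 0 times for Id3, and at least 1 time in 84.0% of all promoters. GTCT and CANNTG can share bases, but no matches of different motifs did so in the windows of Id1, Id2, Id3, Id4 and Smad7. A match is a description of the letters in the window.

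Within the sexes, the libraries were compared by an exact binomial test on estimated fragments, which covers counting error only and compares these libraries, not the conditions. In males it called 15 of 56 members in either direction at an adjusted p under 0.05, beside 21.9% of all transcripts. In females it called 13 of 54, beside 22.4%. The members called in both sexes were 8 of 53, all in the same direction, beside 9.61% of all transcripts tested in both, with Bmp7, Bmp6, Tgfbr3, Tgfbr2, Fstl1 and Id3 lower and Id2 and Tgfbr1 higher. Called in males alone were Bmp5, Bmp1, Tgfb1i1 and Smad2 (lower) and Smad1, Smad5 and Tgfb2 (higher), and in females alone Fst (lower) and Acvr1b, Inhbb, Smad7 and Tgfbrap1 (higher), which does not by itself show that the sexes differed. When the error also held a coefficient of variation of 0.1, 2 members were called in males (Bmp7 and Tgfbr3) and 5 in females (Bmp7, Fst, Fstl1, Tgfbr2 and Tgfbr3), beside 3.97% and 5.27% of all transcripts.

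In males, 1 member differed between treatments by a log2 ratio of 1 or more in size. This was Bmp7, which stood at the threshold itself (-1) and lost it when FPKM was rescaled by the median ratio. Of all transcripts in males, 4.28% were that far apart, 2.53% lower and 1.75% higher. In females there were 4 such members, all lower, namely Bmp7 (-1.38), Fst (-1.09), Tgfbr3 (-1.04) and Smad6 (-1.01). Of all transcripts in females 5.15% were, 3.51% lower and 1.64% higher.

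The difference between the female and the male ratio was tested for 46 members with at least 10 estimated fragments in each library. With counting error alone, 4 passed at an adjusted p under 0.05, beside 9.60% of all 13067 transcripts tested, and 9 had an unadjusted p under 0.05. These 4 were Fstl1, Smad3, Tgfb2 and Tgfbrap1. With a coefficient of variation of 0.1 added, 0 members passed and 0 had an unadjusted p under 0.05.

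Other genes of the pathway were read from lists of antagonists, activators, Smad regulators and targets. Of 11 tested antagonists and modulators of BMP signaling, 0 were called by limma, and the groups did not overlap for 4 that were lower (Nbl1, Eng, Fstl5 and Twsg1) and 1 that was higher (Bmper), beside 31.9% and 18.7% of all transcripts. The largest ratios were those of Bambi (-0.66), Nbl1 (-0.64) and Eng (-0.43), and on the other side Fstl4 (0.25), Bmper (0.19) and Chrdl1 (0.01). Nbl1, a secreted BMP antagonist, had 20.53 and 14.44 FPKM in males and 23.29 and 13.20 in females (limma adjusted p = 0.0629). Across the 14 Smad regulators and cofactors, 0 were called, with a median log2 ratio of -0.02. The largest higher ratio among them was that of Pmepa1, a TGF-beta target that restrains Smad signaling, at 14.13 and 18.52 FPKM in males and 10.78 and 17.31 in females (0.52, limma adjusted p = 0.157). The lowest was that of Tgif1, at 2.0 and 0.97 FPKM in males and 1.16 and 0.08 in females (-1.14, limma adjusted p = 0.327). Smurf2 and Smurf1, ubiquitin ligases that act on Smads and their receptors, had log2 ratios of 0.12 each, and Zeb1 and Zeb2 had -0.27 and -0.09. Without adjustment, 4 of the 11 antagonists and modulators (Nbl1, Eng, Fstl5 and Twsg1) had a limma p under 0.05. So had 2 of the 14 regulators, beside 17.3% of all transcripts.

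Matrix proteins and proteases that bind TGF-beta or act in its activation mostly had lower ratios. Of 11 tested, 2 fell with BPA by limma, Dcn and Bgn, and 10 had both BPA libraries below both control libraries, with a median log2 ratio of -0.31. The shares over all transcripts were 0.456% called lower and 31.9% lower without overlap. Dcn, the proteoglycan decorin, had 22.33 and 9.66 FPKM in males and 22.59 and 6.62 in females (log2 ratio -1.43, limma adjusted p = 0.0413). Bgn, or biglycan, had 24.48 and 10.87 FPKM in males and 24.04 and 7.42 in females (log2 ratio -1.38, limma adjusted p = 0.0430). Emilin1, which restrains TGF-beta processing, had a log2 ratio of -0.95 (limma adjusted p = 0.0501), and Lrrc32, which carries latent TGF-beta on the cell surface, one of -0.99 (limma adjusted p = 0.200). Furin, the protease that matures the ligands, was the single gene of the list with a higher ratio (0.02).

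Of 8 tested genes that TGF-beta or BMP signals are known to induce, the collagen genes Col1a1, Col1a2 and Col3a1 fell, with log2 ratios of -1.51, -1.47 and -1.44 (limma adjusted p = 0.0255, 0.0255 and 0.0430). Fn1, Ctgf and Tgfbi were lower without overlap and without a call, and Hey1 was higher without overlap (log2 ratio 0.17). The groups of Hes1 overlapped, with 3.30 and 4.04 FPKM in males and 3.66 and 2.26 in females. In all, 6 of the 8 were lower and 1 higher without overlap, beside 31.9% and 18.7% of all transcripts. Limma called 3 as lower, beside 0.456% of all transcripts. These collagens and Dcn are also defining genes of meningeal fibroblasts and stand in the marker list below.

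**Figure D4:**
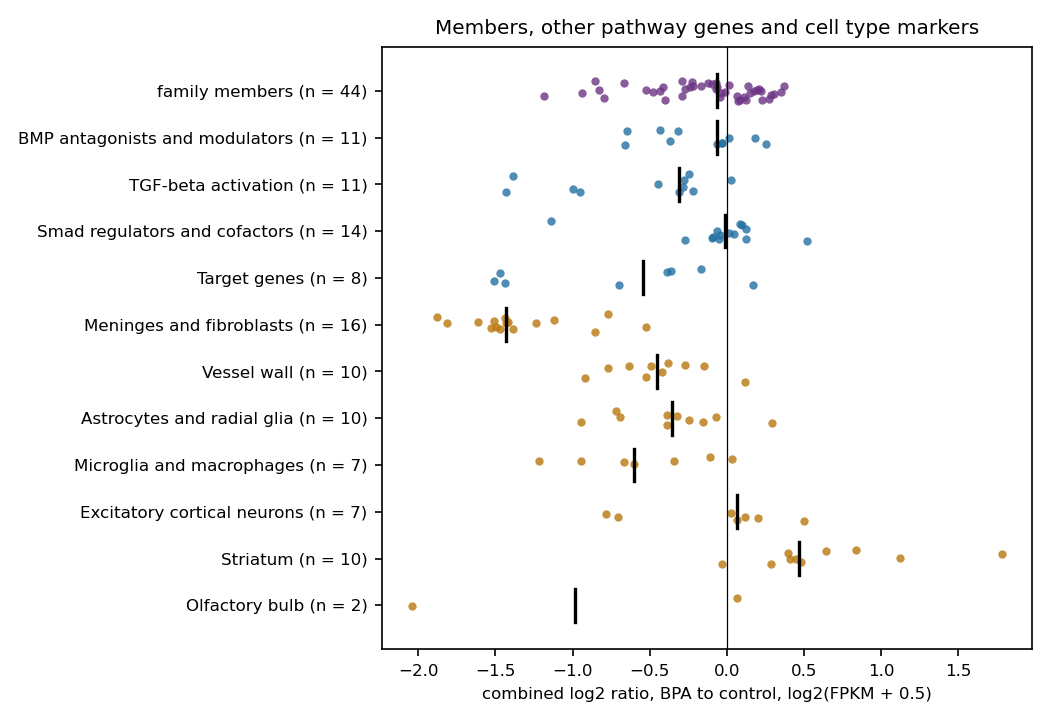
Combined log2 ratio of BPA to control for each tested gene of the families (purple), of the other pathway lists (blue) and of cell type marker lists (orange), with the median as a black bar and points spread vertically for display. The 16 markers of meninges and fibroblasts all lie left of -0.5, with a median of -1.43, while 9 of the 10 striatal genes lie right of 0.

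Markers of other cell types moved with the treatment as well. Their counts stand beside 31.9% of all transcripts lower and 18.7% higher without overlap, and 0.456% called lower and 0.106% called higher by limma. The study's methods state that the meninges were taken off the tissue. All 16 genes of the list for meninges and fibroblasts were lower in both BPA libraries, 8 of them called by limma, with a median log2 ratio of -1.43, and none of them was at the lowest listed value. Of 10 vessel wall genes 7 were lower without overlap (median -0.45), and their sum was 136.2 and 113.6 FPKM in males and 156.2 and 98.9 in females. Of 10 genes of astrocytes and radial glia 7 were lower without overlap (median -0.36), with sums of 840.3 and 712.8 FPKM in males and 850.8 and 600.0 in females. The list of microglia and macrophages had 5 of 7 lower without overlap (median -0.60), and all 8 listed genes, with the untested Cd163, summed to 36.5 and 29.9 FPKM in males and 40.3 and 21.6 in females. The list for the choroid plexus, which also makes BMPs, summed to 2.60 and 1.74 FPKM in males and 3.75 and 1.35 in females. Of its 8 listed genes 0 were in the combined test. Its defining gene Ttr was not listed in males and stood at 0.35 and 0.01 FPKM in females.

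Genes of neighbouring regions differed too. Of 10 striatal genes 9 were higher without overlap and 2 were called (median 0.46). The olfactory bulb gene Cdhr1 stood at 41.10 and 10.77 FPKM in males and 44.48 and 9.29 in females (log2 ratio -2.04, limma adjusted p = 0.00834). The rest of that list was mixed. Reln, the other tested gene, had a ratio of 0.07 with overlapping groups, and of the scarce ones Tbx21 and Th were lower and Doc2g higher in both BPA libraries. Among the excitatory neuron genes Slc17a7 was lower (log2 ratio -0.79, limma adjusted p = 0.0274) and Neurod2 higher (0.50, limma adjusted p = 0.0482). The levels of Bmp7, Bmp6, Tgfbr3, Tgfbr2, Fstl1 and Id3 stood lower in both BPA libraries. So did most genes of the meningeal, vessel wall, astrocyte and microglia lists. The levels of Id2 and Tgfbr1 stood higher there, as did those of most striatal genes. These members were named by their direction, so sharing it ties them to no single list. The part of these cell types and regions in the members' values was not tested.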

How the data were processed

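RNA from the frontal cortex was selected with oligo(dT) and sequenced on an Illumina instrument. Reads were mapped to Rnor_6.0 (rn6) with Bowtie 2 and quantified with RSEM, as the study's methods state, and the submitters' processing notes also name HISAT. Versions are not given in the sources used here. The deposited values are FPKM per transcript, which the authors scaled by transcript length and library size and rounded to 2 decimals, and no listed value is under 0.01. The deposited transcript length was the other column used, a length in bases and not a signal.

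Members, lists and tests were chosen with earlier results of these data known. FPKM + 0.5 was taken to log2, and transcripts whose mean reached 1 FPKM were fitted in limma 3.58.1 (R 4.3.3) with treatment as the only term, a trend in the prior variance and Benjamini-Hochberg adjustment over all 13163 transcripts, which leaves 2 residual degrees of freedom. The male and the female library were the 2 samples of a treatment, so p-values measure the spread between these libraries, which holds the difference between the sexes. The prior variance, estimated over all transcripts tested, added 4.095 degrees of freedom. Much of the variance used for a gene thus came from other transcripts.

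Depth is the fragment total that makes FPKM times length (less 60 bases) nearest to whole in 941 to 992 scarce transcripts per library, of which 83.9 to 86.0% lay within 0.1 of a whole number. Estimated fragments gave the exact binomial test, its 95% intervals (counting error only) and the test of the difference between the sexes. Python 3.11.15, numpy 2.4.6, pandas 2.3.3, scipy 1.17.1 and matplotlib 3.10.9 were used.

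By rule, the value of every library was given for members called by limma, for the 14 with the largest absolute ratios and for the 2 most abundant of each role. Those of Bmp5, Smad1, Smad2, Smad3, Smad6, Smad7, Grem1, Bmp1 and Id1 were added after their values were seen. Of the other pathway genes, those called and the 3 largest ratios in each direction were named. Fstl5, Twsg1, Emilin1, Fn1, Ctgf, Tgfbi and Hes1 were added in the same way. Promoters came from a RefSeq table of GRCr8, matched by Gene ID. No coordinates of Rnor_6.0 were used.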

Additional observations from a re-analysis of the deposited data

Results flagged for a closer look

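The test of the difference between the female and the male log2 ratio singled out 4 members at an adjusted p under 0.05, with counting error as the error considered. The difference (female minus male) was -0.46 for Fstl1 (standard error 0.129, adjusted p = 0.00602 from a normal test on estimated fragments), whose BPA libraries lay below the controls in both sexes and farther below in females. For Smad3 it was -0.56 (standard error 0.184, adjusted p = 0.0321 from the same test), with 4.63 to 5.45 FPKM from control to BPA in males and 6.59 to 5.28 in females. For Tgfb2 it was -0.25 (standard error 0.0811, adjusted p = 0.0307 from the same test), and for Tgfbrap1, which encodes a protein that binds TGF-beta receptors, it was 0.49 (standard error 0.125, adjusted p = 0.00249 from the same test), with 11.35 to 10.58 FPKM in males and 10.55 to 13.77 in females. With a coefficient of variation of 0.1 added to the error, 0 of the 4 passed. Each sex and treatment had 1 library, so a difference between the sexes and a difference between these libraries cannot be told apart.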

How the results depend on the processing

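Of 175 refits of the 14 members with the largest ratios, 0 reversed the direction, 159 kept the side of the threshold, 9 added a call and 7 lost one, all 7 of Bmp7. The number of members called by limma, 1 as reported, was 0 without a filter on low values, 3 with a mean of at least 5 FPKM, 7 among rows with a Gene ID and 0 without a trend in the prior variance, and 0 to 0 with each library left out in turn (9 to 11 with an unadjusted p under 0.05). Pseudocounts of 0.1 and 5, rescaling by the median ratio, sex as a second term (which pairs the libraries by sex) and FPKM summed per gene gave 1. With the sexes paired that member was Id2, and Bmp7 had a limma adjusted p of 0.0541. No assembled transcript was tied to a member. The fragment test called 15 members in males and 13 in females, and 2 and 5 with a coefficient of variation of 0.1 added. Log2 ratios of 1 or more in size were held by 1 member in males, against 3 with a pseudocount of 0.1, 0 with one of 5 and 0 after rescaling, and by 4 in females, against 8 with a pseudocount of 0.1 and 0 with one of 5. The median log2 ratio of the members was -0.0262 after rescaling, against -0.0659. The difference between the sexes was called for 4 members and for 0 with a coefficient of variation of 0.1. The causes of these changes were not tested. A pseudocount of 5 by its construction shrinks the ratios of scarce members, that of Bmp7 to -0.64. The 0 reversals among the 14 members are no check of their direction. Their groups did not overlap, so leaving out a library or changing the pseudocount could not reverse a ratio. The filters, the trend and the sex term leave the ratio itself unchanged.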

Other observations

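Of 12 other pathway genes that lay below the filter of the combined test and were listed in all libraries, 6 were lower and 0 higher without overlap, beside 26.7% and 10.3% of all 3019 such transcripts. The 4 given here were picked after their values were seen. Tll1, a protease of the Bmp1 group that cleaves chordin, had 1.21 and 0.49 FPKM (control and BPA) in males and 1.32 and 0.52 in females, and the exact binomial test on estimated fragments called it in both sexes (adjusted p = 0.00326 and 0.00170, counting error only), as it did 9.61% of all transcripts in the same direction. Mstn, or myostatin, a ligand close to Gdf11, had 0.91 and 0.41 FPKM in males and 0.94 and 0.31 in females. Msx1, a homeobox gene induced by BMPs, had 1.36 and 0.62 FPKM in males and 1.09 and 0.38 in females, and Msx2 0.40 and 0.01 FPKM in males and 0.12 and 0.01 in females. For each of these genes both BPA values lay below both control values, and Mstn, Msx1 and Msx2 were not called by that test in either sex.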
